A study of Mus musculus with 8 samples.

Results

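The complement genes C1qa, C1qb, C1qc, C3, C4b, C3ar1 and C5ar1 were followed in mouse tissue labelled as cervical spinal cord. The members were chosen by name, and each was read from the probe set that the platform annotation pairs with that symbol alone, taking the highest mean over the 8 arrays where several existed. Of the 7 genes listed, 6 had such a probe set, 1 each, and all 6 passed the filter on low signal, out of 16026 genes tested. C3 had no probe set of its own in the annotation used and is not analysed here. RNA of male C57BL/6 mice, 6 weeks old per the labels, was measured on 8 whole-transcript arrays in 4 groups of 2. Control mice received saline intraperitoneally each day for 4 weeks. The MPTP group received the dopaminergic neurotoxin MPTP at 20 mg/kg every 24 h for 4 weeks. The acupoint group received the same MPTP and was also needled by hand at GB34 and LR3, points of the leg and foot, in 14 sessions every 48 h. The hip-needled group, called non-acupoint in the labels, received the same MPTP and needling at both hips instead. Needling was given only on top of MPTP, so no group shows needling alone. Arrays are called replicates 1 and 2 of their group after the mouse number in the labels. The labels give 1 mouse number per array, while the protocol gives more mice per group than arrays. Whether RNA was pooled is not stated. The p-values here therefore describe the variation among these arrays, part of which may be technical.

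Complement is a cascade of proteins that tags cells, debris and synapses and recruits phagocytes to them. C1q, built from the chains encoded by C1qa, C1qb and C1qc, is the recognition protein of the classical pathway. It activates proteases that cleave C4 and then C3, whose fragments stay attached to the tagged surface, and smaller fragments signal through receptors such as C3aR and C5aR1. In the central nervous system microglia are the main source of C1q, astrocytes and other glia make C4, and complement tagging takes part in the removal of synapses.

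Values are RMA signals on the log2 scale, so a difference of 1 is a doubling of signal, and signals of different probe sets are not compared as amounts. Array medians over the tested genes lay between 7 and 7.11. Over all probe sets the medians were 5.8 and 5.77 on control replicates 1 and 2 and 5.59 to 5.71 on the MPTP-treated arrays. The SD over all probe sets was 2.35 on each control array and 2.43 to 2.5 on the MPTP-treated arrays. Across tested genes, arrays of the same group correlated at 0.985 to 0.996 and arrays of different groups at 0.975 to 0.996. All 13 markers of spinal cord neurons and body position, among them Chat of motor neurons and Hoxa5 and Hoxc5 of the cervical cord, were above the filter. Hoxc5 measured 6.52 and 7.04 in control, 6.89 and 7.14 after MPTP, 6.33 and 6.31 after acupoint needling and 7.23 and 6.91 after hip needling. Hoxc8 measured 8.51 and 9.57, 9.84 and 9.66, 9.3 and 9.33, and 10.19 and 9.97 in the same order. In acupoint minus hip needling, 4 of the 13 were lower at an unadjusted limma p under 0.05, against 2% of all genes. None of the 13 was higher there. The mean of 15 skeletal muscle markers was 7.21 and 8.72 on control replicates 1 and 2, 6.70 on acupoint replicate 1 and 5.18 to 5.59 on the remaining arrays. The mean of 6 adipocyte markers was 7.41 on hip-needled replicate 2 and 4.92 to 5.26 elsewhere. Markers of Schwann cells and of meningeal fibroblasts also varied within groups, at 8.57 and 6.65 and at 8.14 and 7.03 on control replicates 1 and 2. Of 10 erythroid genes 2 were tested, and Alas2, the erythroid enzyme of haem synthesis, measured 5.24 and 5.54 in control, 7.87 and 7.81 after MPTP, 5.59 and 6.64 after acupoint needling and 8.57 and 7.4 after hip needling, while Slc4a1 of the red cell membrane stayed between 5.42 and 5.78. The samples thus differed in markers of tissue other than cord, and in some markers of position along the body. Whether other tissue or the position sampled contributed to the complement signals was not tested. In such bulk samples a change in the number of cells of a type and a change in RNA per cell cannot be told apart.

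The 3 C1q genes lie side by side on mouse chromosome 4 in the order C1qb, C1qc and C1qa, with no other annotated gene between them. Promoter windows of C1qb and C1qc, 250 bases before to 50 bases after the gene's start, are shown because these neighbouring genes encode chains of the same protein and their signals are compared below. The promoter set used had no window for C1qa or C4b. The sequences are from RefSeq (GRCm38.p6), minus strand, at chr4:136886151-136886450 for C1qb and chr4:136892865-136893164 for C1qc. Capitals mark the core letters GAGGAA, or TTCCTC on the opposite strand, that the myeloid factor PU.1 can bind.
C1qb: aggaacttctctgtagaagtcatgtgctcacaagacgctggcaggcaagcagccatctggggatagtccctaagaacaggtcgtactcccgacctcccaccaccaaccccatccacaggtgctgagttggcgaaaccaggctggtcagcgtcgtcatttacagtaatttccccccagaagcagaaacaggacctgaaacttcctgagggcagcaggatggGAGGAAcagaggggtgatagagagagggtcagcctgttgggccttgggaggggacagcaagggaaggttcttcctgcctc
C1qc: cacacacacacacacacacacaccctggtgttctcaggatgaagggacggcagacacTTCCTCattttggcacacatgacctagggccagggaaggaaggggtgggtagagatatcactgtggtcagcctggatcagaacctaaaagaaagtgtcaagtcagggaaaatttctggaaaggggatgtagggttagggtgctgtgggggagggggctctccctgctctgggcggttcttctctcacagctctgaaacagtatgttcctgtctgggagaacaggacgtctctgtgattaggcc
C1qb held this core once, 30 to 25 bases before the start, and C1qc once on the opposite strand, 193 to 188 bases before it. The core is short and was present in 28.3% of the 32851 promoter windows searched. The windows of C3ar1 and C5ar1 did not contain these letters. An AP-1 match, TGANTCA, was found once for C3ar1 and in 7.81% of all windows. Matches to the ETS-IRF composite motif (2.72% of windows), TTGCNNAA for C/EBP (10.8%) and TTCNNNGAA for STAT (8.3%), searched on both strands, were found in none of these 4 windows. The window of C3, whose signal was not analysed, held 1 match for C/EBP. A match of letters describes the sequence and is not evidence of binding.

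C1qa and C1qb, the A and B chains of C1q, rose in every MPTP-treated group relative to saline. C1qa measured 7.82 and 7.91 on the control arrays, 8.33 and 8.32 after MPTP, 8.22 and 8.44 after acupoint needling and 8.76 and 8.66 after hip needling. No MPTP-treated array overlapped the controls, the MPTP and acupoint arrays lay together and the hip-needled arrays were the highest. Against control, C1qa rose 1.38-fold after MPTP (log2 0.46, SE 0.10, limma adjusted p = 0.0143), 1.38-fold with acupoint needling (log2 0.47, SE 0.10, adjusted p = 0.0185) and 1.80-fold with hip needling (log2 0.85, SE 0.10, adjusted p = 0.00218). C1qb measured 7.69 and 7.6 in control, 8.15 and 8.08 after MPTP, 7.99 and 8.03 after acupoint needling and 8.31 and 8.36 after hip needling. Its groups did not overlap, in the order control, acupoint, MPTP and hip. C1qb rose 1.39-fold after MPTP (log2 0.47, SE 0.085, adjusted p = 0.00785), 1.29-fold with acupoint needling (log2 0.37, SE 0.085, adjusted p = 0.0259) and 1.62-fold with hip needling (log2 0.69, SE 0.085, adjusted p = 0.00233). The 3 comparisons with saline use the same 2 control arrays and are not independent.

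C1qc, the C chain, measured 8.21 and 8.06 in control, 8.24 and 8.27 after MPTP, 8.25 and 8.40 after acupoint needling and 8.60 and 8.59 after hip needling. Its lowest value was in control, the MPTP and acupoint arrays overlapped, and the hip-needled arrays stood above the rest. C1qc rose 1.37-fold in the hip-needled group over control (log2 0.46, SE 0.09, adjusted p = 0.0103). After MPTP alone its log2 difference was 0.12 (95% interval -0.09 to 0.32, adjusted p = 0.439), and with acupoint needling 0.19 (95% interval -0.02 to 0.39, adjusted p = 0.227).

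Of the 6 complement genes, 2 were called higher in MPTP minus control, where 16.8% of all genes were called, 13.7% higher and 3.1% lower. The count was again 2 in acupoint minus control, against 11.7% of all genes called, 9.55% higher and 2.17% lower. It was 4 in hip-needled minus control (C1qa, C1qb, C1qc and C4b), against 19.2% of all genes, 15.4% higher and 3.87% lower. No complement gene was called lower in these comparisons. The median log2 difference of the 6 genes was 0.24, 0.22 and 0.51 in the MPTP, acupoint and hip-needled groups, and that of all genes 0.06, 0.06 and 0.05.

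With all 6 MPTP-treated arrays set against the controls, 4 genes were called higher, against 25.2% of all genes called, 19.9% higher and 5.35% lower. The differences were 0.59 for C1qa (SE 0.08, limma adjusted p = 0.00143), 0.51 for C1qb (SE 0.07, adjusted p = 0.00147), 0.31 for C4b (SE 0.10, adjusted p = 0.0456) and 0.25 for C1qc (SE 0.075, adjusted p = 0.0349). The MPTP-treated arrays lay above both controls for C1qa, C1qb and C1qc, as for 26.1% of all genes, and C4b overlapped.

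Many of these calls were lost with a single array left out. Where the array left out was not in the comparison, the difference was unchanged. Only the shared estimate of spread and its degrees of freedom changed. Thus with acupoint needling C1qa stayed at 0.466 without either MPTP array. C1qb there stayed at 0.366 without either MPTP array or either hip-needled array. C1qa after MPTP alone was not called without control replicate 1 (0.42, limma adjusted p = 0.0608), control replicate 2 (0.51, adjusted p = 0.056), MPTP replicate 1 (0.46, adjusted p = 0.123) or MPTP replicate 2 (0.47, adjusted p = 0.107). C1qb after MPTP alone was not called without control replicate 2 (0.43, adjusted p = 0.0541), MPTP replicate 1 (0.43, adjusted p = 0.106) or MPTP replicate 2 (0.51, adjusted p = 0.0687). With acupoint needling, the C1qa call was lost without either control array (adjusted p = 0.0678 and 0.0745) or either MPTP array (0.0506 and 0.0501). The C1qb call there was lost without control replicate 2 (adjusted p = 0.133), MPTP replicate 1 or 2 (0.068 and 0.0674), acupoint replicate 2 (0.0529) or hip-needled replicate 1 or 2 (0.0544 and 0.0543). Under other settings with all arrays, C1qa with acupoint needling was not called with array weights (limma adjusted p = 0.0521) or with only the groups compared (0.115), and C1qb not after cyclic loess (0.0673), without a trend in the moderation (0.0507), with array weights (0.0994) or with only the groups compared (0.169).

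Over all 6 MPTP-treated arrays and in the hip-needled group, C1qa and C1qb were called with any single array left out, at 0.55 to 0.64 and 0.47 to 0.55 over the 6 arrays and at 0.80 to 0.90 and 0.65 to 0.73 in the hip-needled group. C1qc in the hip-needled group was not called without control replicate 2 (0.38, limma adjusted p = 0.0706), hip-needled replicate 1 (0.45, adjusted p = 0.0893) or hip-needled replicate 2 (0.46, adjusted p = 0.0595). Over the 6 arrays its call was lost without control replicate 2 (0.17, adjusted p = 0.264), either MPTP array (0.26 and 0.25, adjusted p = 0.0858 and 0.0936) or either hip-needled array (0.25 and 0.26, adjusted p = 0.0823 and 0.071). C1qc over the 6 arrays was also not called after repeated quantile normalization (0.16, adjusted p = 0.0959), cyclic loess (0.14, adjusted p = 0.171) or without a trend in the moderation (0.25, adjusted p = 0.0599).

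**Figure D1:**
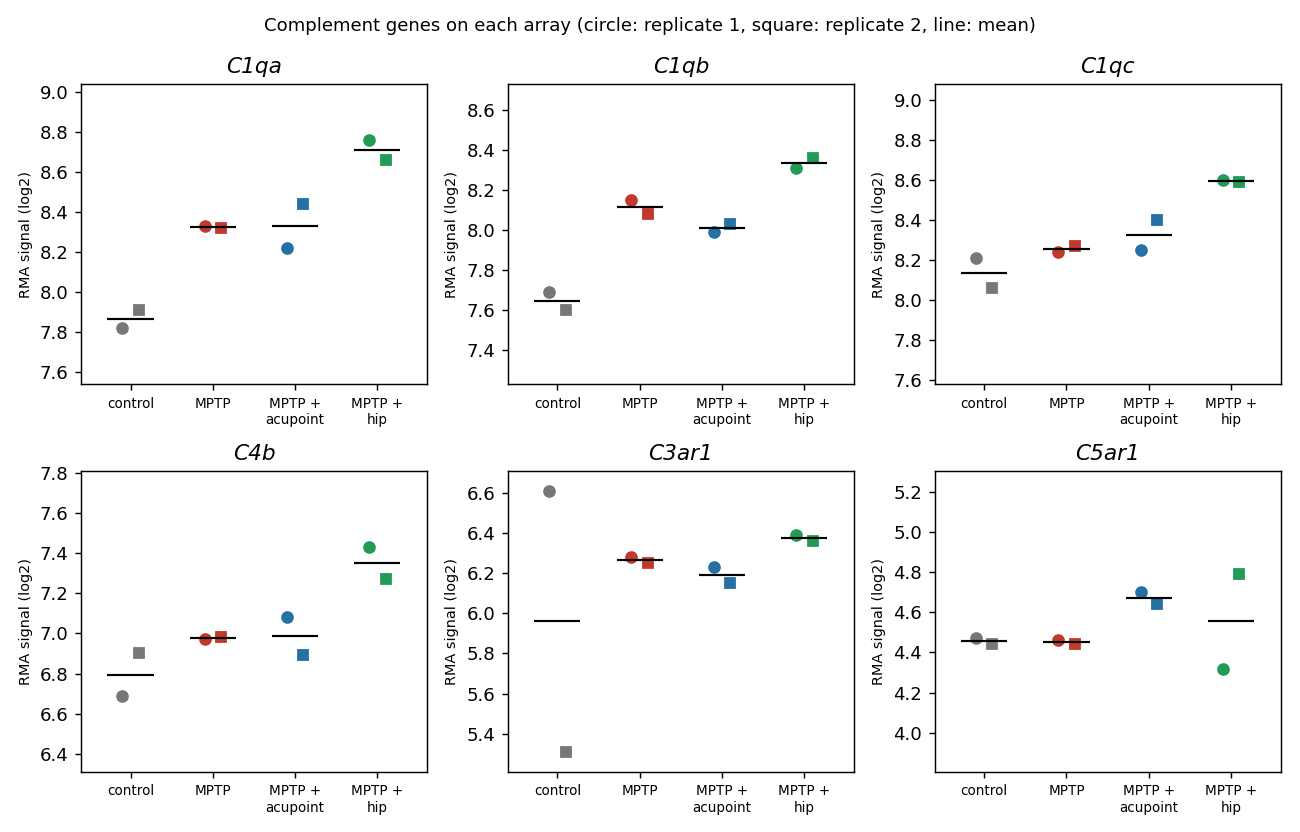
RMA signal (log2, vertical axes, each spanning 1.5 units) of the 6 complement genes on every array, by group on the horizontal axes, where hip stands for the non-acupoint group, circles for replicate 1, squares for replicate 2 and lines for the group mean. For C1qa and C1qb all 6 MPTP-treated arrays lie above both control arrays, and for C1qa, C1qb, C1qc and C4b both hip-needled arrays lie above the 6 others.

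The comparison of needling with MPTP alone asked whether needling moved the complement genes in mice that all received MPTP. After acupoint needling none of the 6 passed the adjusted threshold (limma), and 0 were below an unadjusted p of 0.05. Of all genes 0% passed, and 1.25% were below the unadjusted 0.05, 0.636% higher and 0.618% lower. C1qa had a log2 difference of 0.00 (95% interval -0.22 to 0.22), C1qb of -0.11 (-0.30 to 0.08), C1qc of 0.07 (-0.14 to 0.28) and C4b of 0.01 (-0.26 to 0.28). On the linear scale the interval for C1qa ran from 0.861 to 1.17 times the MPTP level, so these arrays do not exclude changes within it.

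In the hip-needled group C1qa, C1qb, C1qc and C4b stood higher than with MPTP alone on every array, without passing the adjusted threshold. Log2 differences from MPTP were 0.39 for C1qa (95% interval 0.17 to 0.61), 0.34 for C1qc (0.14 to 0.55), 0.37 for C4b (0.10 to 0.64) and 0.22 for C1qb (0.03 to 0.41). The limma adjusted p was 1 for each, and 0 of 16026 genes passed in this comparison. At an unadjusted p under 0.05, 4 of the 6 genes were higher, against 1.7% of all genes, 0.948% higher and 0.755% lower. The hip-needled arrays lay above both MPTP arrays for these 4 genes and C3ar1, as for 17.1% of all genes. With 2 arrays against 2, the smallest exact permutation p for a single gene is 0.333, so this comparison rests on the moderated test. Both hip-needled arrays lay above the 6 other arrays for these 4 genes, as was the case for 5.44% of all genes.

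Acupoint and hip needling were also compared directly. The log2 difference, acupoint minus hip, was -0.38 for C1qa (SE 0.10), -0.33 for C1qb (SE 0.085), -0.36 for C4b (SE 0.12) and -0.27 for C1qc (SE 0.09). None passed (limma adjusted p = 0.936 for each), and at an unadjusted p under 0.05, 4 of 6 complement genes were lower, against 3.77% of all genes, 1.77% higher and 2% lower. Without acupoint replicate 2, C1qa was called (-0.50, adjusted p = 0.0285). The comparisons of hip needling with MPTP and with acupoint needling use the same hip-needled arrays and are not independent.

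**Figure D2:**
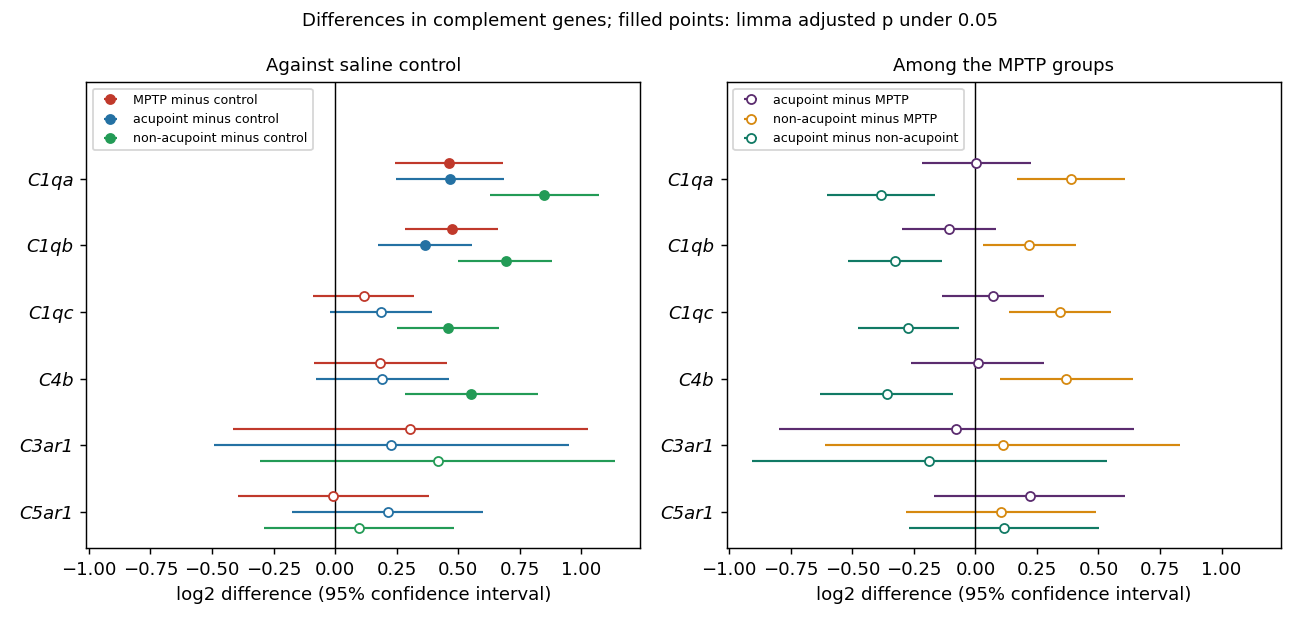
Log2 differences (points) with 95% confidence intervals (lines) of the 6 complement genes from the model over all 8 arrays, against saline control on the left and among the MPTP groups on the right, with non-acupoint denoting hip needling. Filled points had a limma adjusted p under 0.05: C1qa and C1qb are filled in all 3 comparisons with control, C1qc and C4b only with hip needling, and no point is filled among the MPTP groups.

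The signals of the C1q chains were also compared with each other on the same array. The C1qa signal minus the C1qc signal on the same array was -0.40 and -0.15 in control and between -0.03 and 0.16 on the 6 MPTP-treated arrays, a shift of 0.34 with no overlap. For C1qb minus C1qc it was -0.53 and -0.46 in control and -0.37 to -0.08 on the MPTP-treated arrays, a shift of 0.26, again with no overlap. For C1qa minus C1qb the values overlapped, with a shift of 0.08. In a two-sided exact permutation test of 6 arrays against 2, p was 0.0357 for each of the first 2 pairs, the smallest that the 28 splits allow, and 0.464 for the last. Adjusted over the 3 pairs, the values were 0.0536 and 0.464, so no pair passed, and the pairs were tested after their values had been seen. Such a within-array difference does not depend on how arrays were scaled by a constant. Between pairs of the 3 genes, Pearson's r over the 8 arrays was 0.853 to 0.95, and 0.819 to 0.971 over the 6 MPTP-treated arrays.

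C4b encodes complement C4, whose cleavage product C4b binds to tagged surfaces. It measured 6.69 and 6.90 in control, 6.97 and 6.98 after MPTP, 7.08 and 6.89 after acupoint needling and 7.43 and 7.27 after hip needling. Control and acupoint arrays overlapped, and the hip-needled arrays were highest. C4b rose 1.47-fold in the hip-needled group over control (log2 0.55, SE 0.12, adjusted p = 0.014). The call was lost without control replicate 1 (0.45, adjusted p = 0.0669) and without hip-needled replicate 1 (0.47, adjusted p = 0.131). Its call over the 6 MPTP-treated arrays was kept only without either acupoint array (0.28 and 0.34, adjusted p = 0.0403 and 0.0221), and was lost without each of the 6 others, at 0.20 to 0.41. It was also lost after cyclic loess (0.26, adjusted p = 0.0894), with no filter (0.31, adjusted p = 0.0527), without a trend in the moderation (0.31, adjusted p = 0.0533) and with array weights (0.31, adjusted p = 0.0515). After MPTP alone the difference was 0.18 (95% interval -0.09 to 0.45, adjusted p = 0.343) and with acupoint needling 0.19 (-0.08 to 0.46, adjusted p = 0.353). C4a, its near-identical neighbour in the mouse genome, had its own probe set at 6.10 to 6.31 on the 8 arrays, with a difference of 0.05 over the 6 MPTP-treated arrays (adjusted p = 0.741). Whether transcripts of the pair bind to each other's probes was not tested.

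The receptors of the cleavage fragments C3a and C5a gave no call. C3ar1 measured 6.61 and 5.31 in control, 6.28 and 6.25 after MPTP, 6.23 and 6.15 after acupoint needling and 6.39 and 6.36 after hip needling. The control arrays were the highest and the lowest of all 8, while the 6 MPTP-treated arrays spanned 6.15 to 6.39. Its difference over the 6 MPTP-treated arrays was 0.32 (95% interval -0.27 to 0.91, adjusted p = 0.421). It was -0.34 without control replicate 2, and 0.97 and called without control replicate 1 (adjusted p = 0.00389), so the control level of C3ar1 was not settled by these arrays. Border macrophage markers, which include Mrc1 and Cd163, had a mean of 5.63 on control replicate 1 and 4.95 on control replicate 2. Their mean was 5.7 and 4.93 on acupoint replicates 1 and 2 and 5.04 to 5.35 on the remaining arrays. The part of these markers in the C3ar1 values was not tested. C5ar1 was close to the filter value of 4.30, at 4.47 and 4.44 in control, 4.46 and 4.44 after MPTP, 4.70 and 4.64 after acupoint needling and 4.32 and 4.79 after hip needling. The hip-needled arrays spanned the whole range of the gene. Its difference over the 6 MPTP-treated arrays was 0.10 (95% interval -0.21 to 0.42, adjusted p = 0.647).

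Among 59 other complement genes of a fixed list, 54 had a probe set of their own and 35 were tested. In MPTP minus control 6 were higher and 2 lower, against 13.7% and 3.1% of all genes. Over all 6 MPTP-treated arrays 8 were higher and 5 lower, against 19.9% and 5.35% of all genes. Cd46, among the lower in both comparisons, passed the filter through its control arrays, as described below. The median difference of the 35 genes over the 6 arrays was 0.00, against 0.05 for all genes. After needling, relative to MPTP alone, none of the 35 passed at either site, and neither did any other of the 16026 genes tested. Of 8 receptors tested, Itgam, Itgb2 and Megf10 were called higher over the 6 arrays and none lower. Itgam and Itgb2, the chains of complement receptor CR3 on microglia and other myeloid cells, rose by 0.68 (SE 0.09, adjusted p = 0.00155) and 0.76 (SE 0.12, adjusted p = 0.00298) over the 6 arrays. Itgam measured 6.21 and 6.46 in control and 6.94 to 7.18 on the MPTP-treated arrays, and Itgb2 5.71 and 5.44 against 6.14 to 6.59, with no overlap. Megf10, a phagocytic receptor of astrocytes that binds C1q, rose by 0.34 (SE 0.07, adjusted p = 0.00844). The other 5 receptors tested did not pass, the lowest in MPTP minus control being Lrp1 (-0.19, adjusted p = 0.591). Receptor genes Cr2, Itgax and Vsig4 did not pass the filter.

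Among soluble components and enzymes few genes passed. Clu, clusterin, which blocks the terminal membrane attack complex, rose by 0.61 (SE 0.07, adjusted p = 0.000958), from 11 and 10.93 in control to 11.4 to 11.69. Masp1, a protease of the lectin pathway, rose by 0.295 (SE 0.09, adjusted p = 0.0358), and was not called after cyclic loess (0.24, adjusted p = 0.0659). Cfp, properdin, which stabilises the alternative pathway convertase, fell by 0.54 (SE 0.16, adjusted p = 0.0346), from 6.16 and 6.01 to 5.05 to 5.75, and was not called after repeated quantile normalization (-0.41, adjusted p = 0.0536) or median centring (-0.39, adjusted p = 0.0523). Mbl2 was the lowest initiation gene in MPTP minus control (-0.195, adjusted p = 0.423), and C2 (0.16, adjusted p = 0.577) the highest of the enzymes. Serping1, the C1 inhibitor, did not pass and varied within groups, at 8.82 and 7.20 in control, 6.73 and 7.96 after MPTP, 8.48 and 6.52 after acupoint needling and 7 and 7.53 after hip needling. Means of the meningeal fibroblast markers on the same arrays were 8.14 and 7.03, 6.94 and 7.77, 8.29 and 6.83, and 7.11 and 7.49, and their part in the Serping1 values was not tested. Of the terminal pathway C8g alone was tested, at -0.21 in MPTP minus control (adjusted p = 0.366). Hc, C6, C7, C8a, C8b and C9 of the terminal pathway, C1ra, C1s1, C1s2, Mbl1 and Colec10 of initiation, and Cfi, C4bp, Cpn1 and Cpn2 among the regulators did not pass the filter.

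Membrane regulators moved in both directions. Of 12 tested, 3 were called higher and 4 lower over the 6 MPTP-treated arrays, against 19.9% and 5.35% of all genes. Cd46, a membrane cofactor for C3b inactivation, was among those called lower, at 5.81 and 5.58 in control and 4.03 to 4.47 on the MPTP-treated arrays (log2 -1.40). It passed the filter through its control arrays, and its mean of 4.29 on the MPTP-treated arrays lies at the filter value of 4.30. The size of its difference is therefore not a measured fold, and its call is not support for a fall. Cr1l, also called Crry, the main membrane inhibitor of C3 activation in rodents, rose by 0.43 (SE 0.10, adjusted p = 0.0134), from 6.97 and 6.94 to 7.14 to 7.58. The CUB and sushi domain genes Csmd1, Csmd2 and Csmd3 fell by 0.39 (adjusted p = 0.0303), 0.355 (adjusted p = 0.0478) and 0.50 (adjusted p = 0.00428). Csmd1 lost its call after repeated quantile normalization (-0.34, adjusted p = 0.0507) and median centring (-0.24, adjusted p = 0.121), and Csmd2 after these (-0.31 and -0.20, adjusted p = 0.079 and 0.207) and after cyclic loess (-0.35, adjusted p = 0.0504). Of the related neuronal genes, Sez6l and Sez6l2 rose by 0.54 (adjusted p = 0.00269) and 0.29 (adjusted p = 0.00938), and Sez6 was at 0.01 (adjusted p = 0.95). Sez6l2 was not called after cyclic loess (0.14, adjusted p = 0.167). The regulator Cd55b did not pass the filter. With each of the 8 arrays left out in turn, Clu, Sez6l, Itgam and Itgb2 were called in all 8 fits. Csmd3 was called in 7 (not without control replicate 2), Sez6l2 in 7 (not without control replicate 1) and Cr1l and Megf10 in 6 (not without either control array). Masp1 and Cfp were called in 3 of the 8 fits, Csmd1 in 2 and Csmd2 in 1. Over the 8 fits the differences ranged from 0.26 to 0.33 for Masp1, -0.64 to -0.44 for Cfp, -0.49 to -0.30 for Csmd1 and -0.47 to -0.24 for Csmd2.

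**Figure D3:**
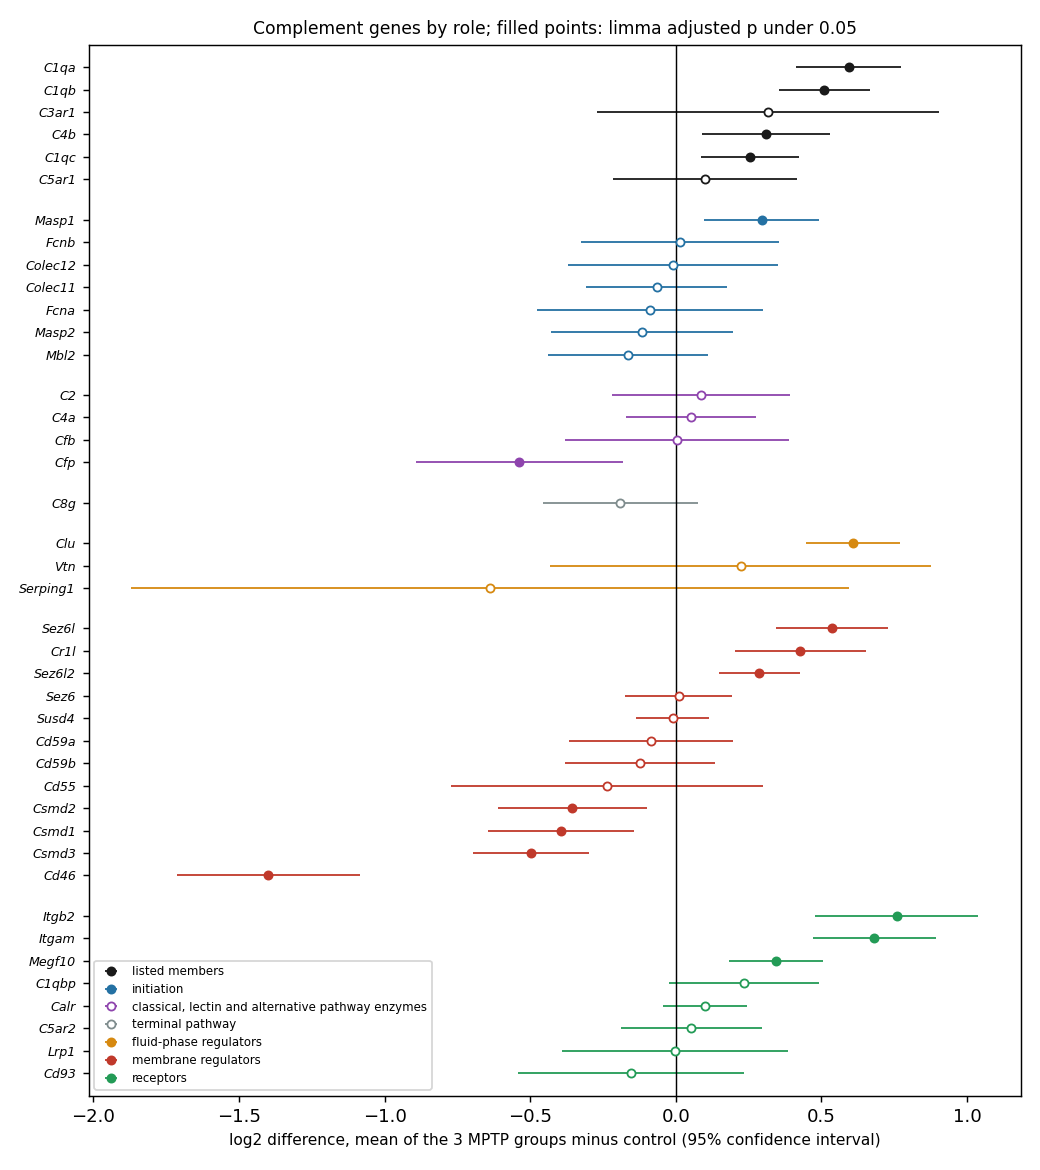
Log2 difference of all 6 MPTP-treated arrays against control (horizontal axis) with 95% confidence intervals for the 6 complement genes, listed first, and 35 other complement genes grouped by role. Filled points had a limma adjusted p under 0.05, and the legend gives the colour of each role. Cd46 is drawn farthest to the left at -1.40, with its MPTP-treated signal at the filter value, and Itgb2 farthest to the right at 0.76.

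Microglial and astrocyte markers were set beside the complement genes, since these cells make them. Of 15 microglial markers 8 were called higher over the 6 MPTP-treated arrays and none lower, against 19.9% and 5.35% of all genes. The count was 6 after cyclic loess and without a trend in the moderation, and 11 with median centring. It fell when either control, either MPTP or either hip-needled array was left out. In those fits the median difference of the 15 ranged from 0.298 to 0.443. The median difference of the 15 was 0.32, and 12 differences were positive and 3 negative, the lowest at -0.149. Among them Ctss, a lysosomal protease, rose by 0.83 (SE 0.07), the fractalkine receptor Cx3cr1 by 0.45 (SE 0.08) and Aif1, which encodes IBA1, by 0.61 (SE 0.125), while Tmem119 was at -0.13 (adjusted p = 0.34). Averaged over the 15, signal was 6.84 and 6.79 in control and between 7.03 and 7.23 after MPTP with or without needling. The C1qa signal minus this microglial mean was 0.98 and 1.12 in control, 1.22 and 1.26 after MPTP, 1.18 and 1.27 after acupoint needling and 1.54 and 1.54 after hip needling. For C1qb it was 0.85 and 0.81 in control, 1.04 and 1.01 after MPTP, 0.96 and 0.86 after acupoint needling and 1.08 and 1.24 after hip needling. For C1qc the same difference was 1.38 and 1.27 in control, 1.13 to 1.23 in the MPTP and acupoint groups and 1.37 and 1.46 after hip needling. In hip-needled minus MPTP the 15 markers had a median of 0.10. At an unadjusted limma p under 0.05, 1 of them, Ctss, was higher (log2 0.31, SE 0.08), against 0.948% of all genes. Neither Ctss nor any other gene passed the adjusted threshold there. Whether the complement genes differed from the microglial markers was not tested.

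Of 12 astrocyte markers 10 were called higher over the 6 MPTP-treated arrays, against 19.9% of all genes. The median difference of the 12 was 0.46, and their mean was 10.01 and 9.88 in control against 10.39 to 10.5. Of 9 markers of reactive astrocytes tested, 1 was called higher after MPTP alone, against 13.7% of all genes. This was Serpina3n (0.69, SE 0.07, limma adjusted p = 0.00155). The median difference of the 9 was 0.08, and 6 differences were positive and 3 negative, the lowest at -0.67. The 7 border macrophage markers had no call over the 6 arrays, and their means were 5.63 and 4.95 in control and 4.93 to 5.7 on the MPTP-treated arrays. Means of 6 markers of blood monocytes and neutrophils were 5.23 and 5.11 in control and 4.92 to 5.71 on the MPTP-treated arrays, also without a call. Adipocyte markers separated the hip-needled arrays, at 4.92 on replicate 1 and 7.41 on replicate 2. On replicates 1 and 2, C1qa measured 8.76 and 8.66, C1qb 8.31 and 8.36, C1qc 8.6 and 8.59, and C4b 7.43 and 7.27. Over the 6 arrays 8 of 10 neuronal and 6 of 9 oligodendrocyte markers were called higher, against 19.9% of all genes. Positive differences from control were thus not limited to glial immune genes. The part of all these cell types and tissues in the complement differences was not tested.

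**Figure D4:**
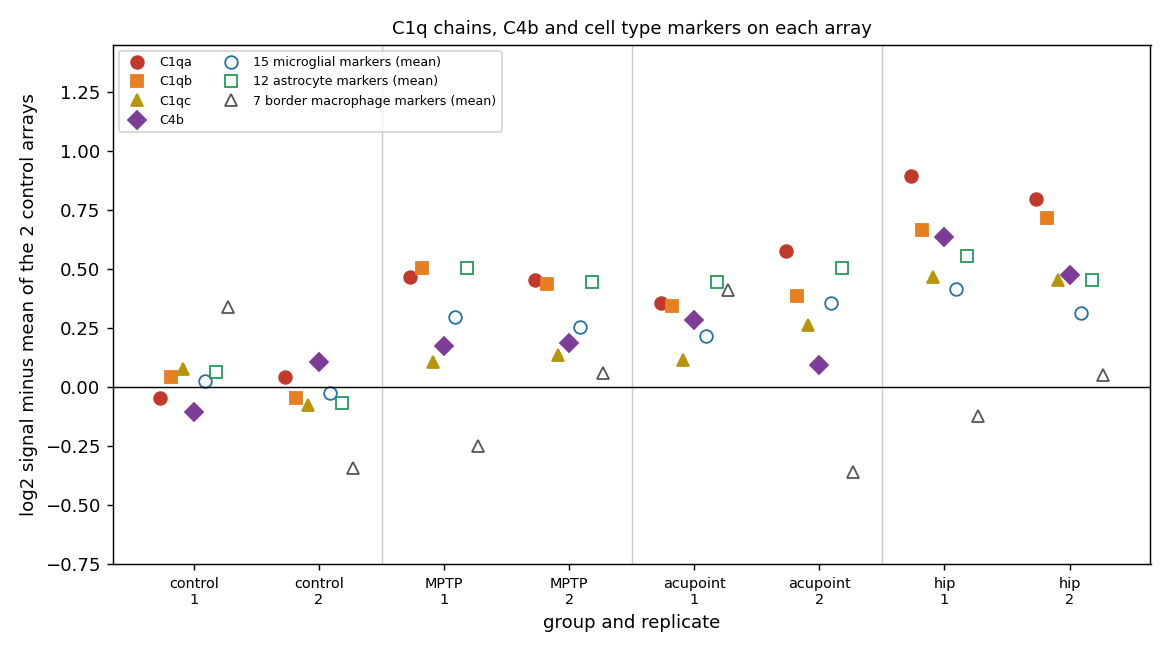
Signal of C1qa, C1qb, C1qc and C4b (filled) and mean signal of 15 microglial, 12 astrocyte and 7 border macrophage markers (open) on each array, as log2 signal minus the mean of the 2 control arrays (vertical axis), with arrays by group and replicate on the horizontal axis and points set slightly apart. C1qa reaches its highest values on the hip-needled arrays, while the microglial mean signal is 7.03 to 7.23 on the MPTP-treated arrays and 6.79 and 6.84 on the control arrays.

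The genes most like each complement gene over the 8 arrays were named as a description. C1qa was closest to Etf1 (Pearson's r = 0.983), Ginm1 (0.983), Iars2 (0.979), Edil3 (0.977) and Trf (0.976). C1qb was closest to Synm (0.99), Capn2 (0.987), Rab31 (0.986), Trf (0.98) and Tcn2 (0.979), so Trf, transferrin, was near both. For C1qc the closest were Spin4 (0.975), Dennd10 (0.963), Gm16381 (0.961), Nipal4 (0.959) and Erlin2 (0.958). C4b was closest to Ppp1r16b (0.95), Tubb1 (0.949), Acp7 (0.946), Sowahc (0.936) and Inpp5a (0.929). For C3ar1 the closest were Mapk1ip1l (0.982), Nrros (0.97), Gm5154 (0.955), Mgat4b (0.954) and Iigp1 (0.947), and these values fell to between 0.343 and 0.75 over the 6 MPTP-treated arrays, so they rested on the control arrays. C5ar1 was closest to Eva1b (0.966), Slc2a4 (0.944), Olfr411 (0.932), Myh8 (0.929) and Dppa4 (0.911). The 8 arrays fall into 4 groups and were normalized together, so these correlations are not independent observations.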

How the data were processed

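Arrays hold total RNA hybridised as biotin-labelled cDNA. Affymetrix Expression Console and RMA appear in the submitters' processing notes. For each of 35557 probe sets the authors deposited an RMA signal on the log2 scale, the base being read from the values. RMA corrects background, equalises probe signal distributions and summarises probes per probe set, and it compresses differences of dim probe sets. The number of arrays limits the precision. No source used here states versions or scan dates, and no batch was tested. Probe sets with 1 symbol in the platform annotation (21789, of which 21698 had an Entrez identifier in the RefSeq table) were kept where their mean exceeded the 30th percentile of all probe sets, 4.30, and the highest-mean probe set stood for a gene.

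Group means were estimated over all 8 arrays and 16026 genes with limma 3.58.1 in R 4.3.3 (lmFit, eBayes with trend, 4 residual and 5.34 prior degrees of freedom), two-sided, with Benjamini-Hochberg adjustment within each of 7 contrasts and a threshold of 0.05. The fit was run as a check of the code on simulated data, with independent noise and few genes raised in the MPTP group. Far more genes were called in the real comparisons with control, so the simulation is no evidence for those calls. Ratios between C1q chains were tested by exact permutation, added after the values were seen. All members were named, with other complement genes that passed in any contrast or were the highest or lowest of their role in MPTP minus control, and the 5 genes most correlated with each member. The members and lists were chosen with earlier results of these data known. Alternatives covered scaling, filter, moderation, arrays in the fit, array weights, probe set averaging, omission of each array, and the replicate number as a block. Plots used matplotlib 3.10.9 in Python 3.11.15.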

Additional observations from a re-analysis of the deposited data

How the results depend on the processing

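The number of complement genes called was 2 in acupoint minus control and fell to 1 after cyclic loess and with eBayes without a trend, and to 0 with array weights and with only the groups compared. Over the mean of the 3 MPTP groups it was 4, and 2 after cyclic loess, with eBayes without a trend and with the replicate number as a block. The block lost the calls of C1qc and C4b there (0.254 and 0.309, limma adjusted p = 0.057 and 0.0687). With single arrays left out it ranged from 0 to 2 in MPTP minus control and in acupoint minus control, from 2 to 4 in hip-needled minus control and over the 3 MPTP groups, and from 0 to 1 in acupoint minus hip needling, and it was 0 throughout in both needled groups minus MPTP. The cause was not tested. Numbers in the labels are not stated to pair samples, deviations of same-numbered arrays correlated at -0.33 to 0.17 between groups, and the block changed no count of complement genes other than the one given. Differences near 0 changed sign. C1qc in MPTP minus control was -0.009 after cyclic loess, C1qa and C4b in acupoint minus MPTP were -0.021 and -0.016 with arrays centred on their medians, and C5ar1 in MPTP minus control was 0.225, 0.113 and 0.151 after quantile normalization, cyclic loess and median centring. Without single arrays, differences ranged from -0.11 to 0.118 for C1qa, -0.005 to 0.147 for C1qc and -0.087 to 0.104 for C4b in acupoint minus MPTP. For C3ar1 they ranged from -0.346 to 0.957 in MPTP minus control, -0.423 to 0.88 in acupoint minus control, -0.235 to 1.068 in hip-needled minus control and -0.335 to 0.968 over the 3 groups. For C5ar1 they ranged from -0.025 to 0.01 in MPTP minus control, -0.14 to 0.334 in hip-needled minus control, -0.132 to 0.341 in hip-needled minus MPTP and -0.121 to 0.352 in acupoint minus hip needling. Over all genes, 2696 were called in MPTP minus control, 81.6% of them higher, and this share was 64% after cyclic loess and 94.9% with median centring, which moved the median gene from 0.061 to 0.219. The count was 4246 with median centring, 4159 with array weights and 69 to 4225 with an array left out. In acupoint minus control 1878 became 2872 with median centring, 1023 without a trend, 667 with array weights, 135 with only the groups compared and 249 to 3731 with an array left out. With an array left out, counts ranged from 387 to 4637 in hip-needled minus control (3083) and from 1404 to 5870 over the 3 groups (4041). Counts of 0 became 1 with array weights and 2 with only the groups compared in hip-needled minus MPTP, and with an array left out 0 to 13 there, 0 to 3 in acupoint minus MPTP and 0 to 622 in acupoint minus hip needling.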
